A study of Mus musculus with 3 samples.

Results

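The genes described here encode parts of the phagocyte NADPH oxidase and enzymes that remove superoxide or hydrogen peroxide. They are 8 of 55536 annotated genes: the oxidase genes Cybb, Cyba, Ncf1, Ncf4 and Rac2, and the enzyme genes Sod1, Sod2 and Cat. The genes were chosen by symbol and not by their values, though with earlier results of these data known. All 8 symbols matched a gene. They were measured in cytosolic RNA of bone-marrow-derived macrophages, which are macrophages grown in culture from the bone marrow of C57BL/6J mice. The cells received 100 ng/ml Lipid A, the membrane anchor of bacterial lipopolysaccharide and the ligand of Tlr4, for 12 hours, went without it for 12 hours, and received 100 ng/ml again for 40 minutes. The RNA was depleted of ribosomal RNA and sequenced as 3 libraries, labelled biological replicates 1, 2 and 3 of this 1 group. Untreated cells and cells stimulated once were not analysed here, so every value is a level and none is a response to Lipid A. The labels do not say whether the 3 cultures came from separate animals, so the spread between these libraries may be technical. The p-values refer only to that spread, which the test drew from many genes and not from the tested pair alone.

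The oxidase moves electrons from NADPH across a membrane on to oxygen and so makes superoxide inside phagosomes or outside the cell. Cybb and Cyba encode the heavy and light chains of its membrane cytochrome, which carries the electrons. Ncf1 and Ncf4 encode cytosolic subunits that join the cytochrome on activation, together with the GTPase Rac2 or its relative Rac1. Superoxide is turned into hydrogen peroxide by superoxide dismutases, of which Sod1 is mostly cytosolic and Sod2 mitochondrial, and catalase (Cat) breaks peroxide down to water and oxygen. Sod2 is widely known as a target of NF-kB signalling.

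All 8 genes were detected, meaning that each library reached a TPM of 1. TPM is abundance per transcript length, scaled to a fixed total in each library. Of all protein-coding genes 41.4% reached that level. The median of the 8 was 7.31 on the log2(TPM + 1) scale, against 3.25 for the detected protein-coding genes. By mean TPM among 22015 nuclear protein-coding genes, Cyba ranked 58, Cybb 148, Rac2 191, Sod2 213, Ncf1 306, Sod1 765, Ncf4 887 and Cat 1674. The summed TPM of the 8 genes was 1535 in replicate 1, 1303 in replicate 2 and 1339 in replicate 3, of which the 5 oxidase genes gave 1217, 1050 and 1096.

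Several features of the whole libraries bear on these values. Annotated genes held 38197192, 46327891 and 38685666 expected counts in replicates 1, 2 and 3. The 7SL RNA genes Rn7s1 and Rn7s2 took 54.4%, 63.0% and 56.4% of gene-level TPM, and nuclear protein-coding genes 33.3%, 28.1% and 27.7%. The gene-level TPM of an mRNA is thus a share of a total made mostly of 7SL RNA. Rn7s1 had 271744, 313904 and 281703 TPM on this scale, on 1373863, 2327882 and 1587878 expected counts. In the TPM made from the reads without an alignment file it had 63798, 116569 and 77895, so the 7SL share differs between the 2 estimates. Replicate 2 stood apart in its nuclear RNA. The nuclear non-coding RNA Malat1 stood at 1445 TPM in replicate 1, 485 in replicate 2 and 1726 in replicate 3. Neat1, another, stood at 87.7, 16.1 and 88.3 TPM. The cells carried the macrophage markers: all 8 on the list were detected, led by Lyz2 at 3020 ± 549 TPM and Cd68 at 618 ± 59.2 TPM (SD, n = 3). Among the 8 neutrophil markers S100a9 (4.55 ± 0.604 TPM) and S100a8 (3.22 ± 0.888 TPM) were detected, the list summed to 7.02 to 9.87 TPM, and Ly6g was at 0 in every library. Of the B cell markers Cd79b was detected, and no dendritic cell, eosinophil and mast cell, or fibroblast marker was.

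The light chain Cyba (chr8:122424776-122432930, minus strand, mm10) was the highest of the 8. It had 505, 530 and 476 TPM in replicates 1, 2 and 3, a mean of 504 ± 27.2 TPM (SD, n = 3) on 14541, 22213 and 16208 expected counts. Replicate 2 was highest. The libraries lay closer in TPM than in FPKM, which was 725, 917 and 816. The transcript Cyba-201 held 96.1% ± 0.315 of its TPM in the transcript table made from the alignments, called alignment-based from here on. Gm20388 overlaps Cyba on the opposite strand. Whether the counting used strand is not stated in the sources used here, so reads of the overlap are uncertain.

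The heavy chain Cybb (chrX:9435252-9487771, minus strand) had 288, 181 and 207 TPM in replicates 1, 2 and 3, a mean of 225 ± 55.7 TPM (SD, n = 3). Replicate 1 was highest and replicate 2 lowest, a different order from that of Cyba. Cybb held more expected counts than any other of the 8 (67536, 64091 and 58762). Its main transcript is 4752 bases long and that of Cyba 744, and TPM divides counts by length. On the log2(TPM + 1) scale the ratio of Cybb to Cyba was -0.81, -1.55 and -1.20 in replicates 1, 2 and 3. Cybb was lower than Cyba in 3 of 3 libraries, by a mean log2 ratio of -1.19 (SE 0.14, limma adjusted p = 3.34e-07). Of 9647 detected genes 99.1% were called lower than Cyba, so the call holds for nearly every gene and the size of the ratio is what describes Cybb. The genes whose TPM lay nearest to that of Cybb over the 3 libraries were Tmbim6, Pnp and Lilrb4a, with root mean square differences of 0.083, 0.087 and 0.094 in log2(TPM + 1) among 22027 other protein-coding genes.

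Of the cytosolic subunits, Ncf1 (chr5:134220053-134229625, minus strand), the organiser of the complex at the cytochrome, was more abundant than Ncf4. It had 166, 122 and 134 TPM in replicates 1, 2 and 3, a mean of 141 ± 22.7 TPM (SD, n = 3). Ncf4 (chr15:78244801-78262580, plus strand), whose protein binds a phosphoinositide of phagosome membranes, had 59.4, 52.5 and 50.9 TPM, a mean of 54.3 ± 4.48 TPM. The libraries of Ncf1 and Ncf4 did not overlap. Replicate 1 was highest for Ncf1 in TPM and FPKM, whereas Ncf4 was highest in replicate 1 by TPM and in replicate 2 by FPKM (85.2, 91.0 and 87.3). The log2 ratio of Ncf1 to Ncf4 was 1.47, 1.20 and 1.38, positive in 3 of 3 libraries, with a mean of 1.35 (SE 0.078, limma adjusted p = 3.92e-06). Of the detected genes 8.45% were called higher than Ncf4. Gtf2ird2 overlaps Ncf1 on the opposite strand, so reads of that overlap are uncertain.

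Part of the Ncf4 level in TPM came from transcripts that hold a piece of an intron at one end. The complete coding transcript Ncf4-201 held 69.1%, 81.7% and 70.4% of Ncf4 TPM in replicates 1, 2 and 3 (73.7% ± 6.90, SD, n = 3), and transcripts annotated as retained intron held 28.0%, 16.2% and 26.5%. By expected counts Ncf4-201 held 92.1% ± 2.39, and the retained-intron class 8.28%, 4.19% and 6.62%. Ncf4-204 (9.77% ± 5.68 of TPM) and Ncf4-206 (12.0% ± 4.92 of TPM) were the largest of these, on 24.9 to 62.6 and 84.3 to 184 expected counts. Their intron edges are shown because they are what tells these transcripts from the coding one. The bases are those of the GENCODE M21 transcripts on mm10, read 5′ to 3′ along the plus strand. Lower case marks an exon of Ncf4-201 and capitals mark the intron bases next to it, which run over chr15:78260755-78260802 in Ncf4-204 and chr15:78260878-78260971 in Ncf4-206.
Ncf4-204: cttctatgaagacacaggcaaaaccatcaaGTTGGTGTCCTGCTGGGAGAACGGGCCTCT
Ncf4-206: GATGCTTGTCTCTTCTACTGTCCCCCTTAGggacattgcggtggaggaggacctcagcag
The capitals of Ncf4-204 open with GT, the usual first bases of an intron. Those of Ncf4-206 close with AG, the usual last bases.

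Rac2 (chr15:78559167-78572783, minus strand), the GTPase of blood cells that switches the oxidase on, had 199, 165 and 229 TPM in replicates 1, 2 and 3, a mean of 197 ± 31.9 TPM (SD, n = 3). Rac1, its relative found in most tissues, had 142, 108 and 105 TPM. Rac2 was higher in 3 of 3 libraries, with log2 ratios of 0.49, 0.60 and 1.11 and a mean of 0.73 (SE 0.14, limma adjusted p = 1.32e-07). Of the detected genes 3.62% were called higher than Rac1. Daglb and Gm42502 overlap Rac1 on the opposite strand.

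Much of the Rac2 TPM rested on few reads. The complete coding transcript Rac2-201, of 3038 bases, held 98.6% ± 0.334 of the expected counts of the gene but 57.8% ± 7.20 of its TPM. Rac2-203, of 254 bases and annotated as an incomplete coding transcript, held 1.36% ± 0.329 of the counts (206, 304 and 367) and 41.6% ± 7.23 of the TPM. The effective length by which its counts were divided was 54.7, 55.4 and 49.5 bases in replicates 1, 2 and 3, against 2821, 2820 and 2811 for Rac2-201. The labels give a size range of 250 to 400 bases, and what this lower bound does to so short a transcript was not tested. In the table made from the reads without an alignment file, called read-based from here on, Rac2-203 held 46.9% ± 7.05 of TPM, and Rac2-202, annotated for nonsense-mediated decay, held 5.54% ± 2.84. Rac2-203 is printed whole, on the minus strand of mm10, to show how little sequence carries this share; capitals mark its last bases (chr15:78561895-78561905), which no exon of Rac2-201 holds.
Rac2-203: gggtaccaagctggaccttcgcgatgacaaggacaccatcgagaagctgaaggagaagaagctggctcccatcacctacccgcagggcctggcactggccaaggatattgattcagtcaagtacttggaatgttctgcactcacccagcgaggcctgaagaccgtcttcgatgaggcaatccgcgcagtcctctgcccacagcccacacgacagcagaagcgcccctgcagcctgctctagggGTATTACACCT
The other 243 bases in lower case are all shared with Rac2-201. Counted over complete coding transcripts, Rac2 had 129, 95.7 and 115 TPM, and its log2 ratio to Rac1 was 0.86, 0.82 and 1.06. Rac1 had its own such split, with 50.5% ± 1.15 of its TPM in complete coding transcripts and 49.5% ± 1.15 in processed transcripts.

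Among the enzymes, Sod2 (chr17:13006846-13040063, plus strand) had 228, 158 and 157 TPM in replicates 1, 2 and 3, a mean of 181 ± 41.0 TPM (SD, n = 3). Sod1 (chr16:90220754-90226329, plus strand) had 60.4, 65.4 and 61.1 TPM, a mean of 62.3 ± 2.69 TPM. Cat (chr2:103453849-103485160, minus strand) had 29.4, 29.3 and 25.6 TPM, a mean of 28.1 ± 2.18 TPM. Sod2 was highest in replicate 1. The closeness of the Sod1 libraries belongs to the TPM scale, since their FPKM was 86.7, 113 and 105, with an SD of 13.5 around a mean of 102. Scaf4 overlaps Sod1 on the opposite strand, so reads of that overlap are uncertain.

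Over all transcripts Sod2 was the higher dismutase. Its log2 ratio to Sod1 was 1.90, 1.26 and 1.34 in replicates 1, 2 and 3, with a mean of 1.50 (SE 0.16, limma adjusted p = 9.41e-21), and 6.92% of detected genes were called higher than Sod1. Its log2 ratio to Cat was 2.92, 2.39 and 2.57, with a mean of 2.62 (SE 0.12, limma adjusted p = 4.21e-11), and 15.3% of detected genes were called higher than Cat. Both ratios were positive in 3 of 3 libraries. The genes nearest to Sod2 in TPM over the 3 libraries were Sat1, Hspa5 and Sp100, with root mean square differences of 0.049, 0.055 and 0.058 in log2(TPM + 1).

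By TPM, most of that Sod2 level was assigned to transcripts other than its complete coding one. Sod2-201, of 5861 bases, held 13.7%, 11.7% and 12.5% of Sod2 TPM in replicates 1, 2 and 3 (12.6% ± 0.981, SD, n = 3), but 53.6% ± 1.96 of the expected counts. Among 9118 detected protein-coding genes the median share of TPM in complete coding transcripts was 92.5%, and 1.23% of genes had a smaller share than Sod2. The read-based table gave Sod2-201 9.77% ± 1.11 of TPM and 47.5% ± 2.15 of counts. Sod2-207, annotated as a processed transcript with no coding sequence, held 51.2%, 49.0% and 45.0% of TPM (48.4% ± 3.11) and 33.5% ± 2.08 of counts. Of the transcripts annotated as retained intron, Sod2-204 held 26.2% ± 7.57 of TPM, Sod2-203 8.55% ± 3.90 and Sod2-206 3.12% ± 1.33, or 5.15% ± 2.19 in the read-based table. Sod2-207 shares 1091 of its 1138 bases with Sod2-201, and Sod2-204 shares 529 of its 644. In replicate 1 their effective lengths were 921 and 427 bases, against 5644 for Sod2-201. Whether reads of the shared bases were divided rightly among these transcripts was not tested.

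The Sod2 transcripts differ at their intron edges and in their last exon. Sod2-207 is 1138 bases long and keeps 47 bases (chr17:13008387-13008433) between exons that Sod2-201 joins directly. Its last exon starts where that of Sod2-201 starts and is 591 bases long, against 5109 bases in Sod2-201. Sod2-203 begins with 180 intronic bases that lead into an exon of Sod2-201 (chr17:13010340-13010519), and Sod2-204 ends with 115 intronic bases that follow that exon (chr17:13010637-13010751); each holds a piece of an intron next to a splice site. The sequences are from the GENCODE M21 transcripts, plus strand of mm10, with exons of Sod2-201 in lower case and bases that Sod2-201 lacks in capitals.
Sod2-207: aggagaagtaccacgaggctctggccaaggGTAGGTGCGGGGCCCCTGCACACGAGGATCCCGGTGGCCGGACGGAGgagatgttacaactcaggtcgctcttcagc
Sod2-203: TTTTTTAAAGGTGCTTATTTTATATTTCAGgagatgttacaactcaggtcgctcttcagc
Sod2-204: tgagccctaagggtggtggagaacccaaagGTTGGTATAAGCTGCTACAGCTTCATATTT
All 47 extra bases of Sod2-207 are printed, with GT first and AG last. The run after them in Sod2-207 is the same exon start that follows the capitals in Sod2-203. By their coordinates the 47 bases are only the start of the intron whose last bases Sod2-203 holds. Their closing AG is therefore not the end of that intron. Sod2-204 and Sod2-203 rested on 938 to 1619 and 68.4 to 200 expected counts per library.

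**Figure D1:**
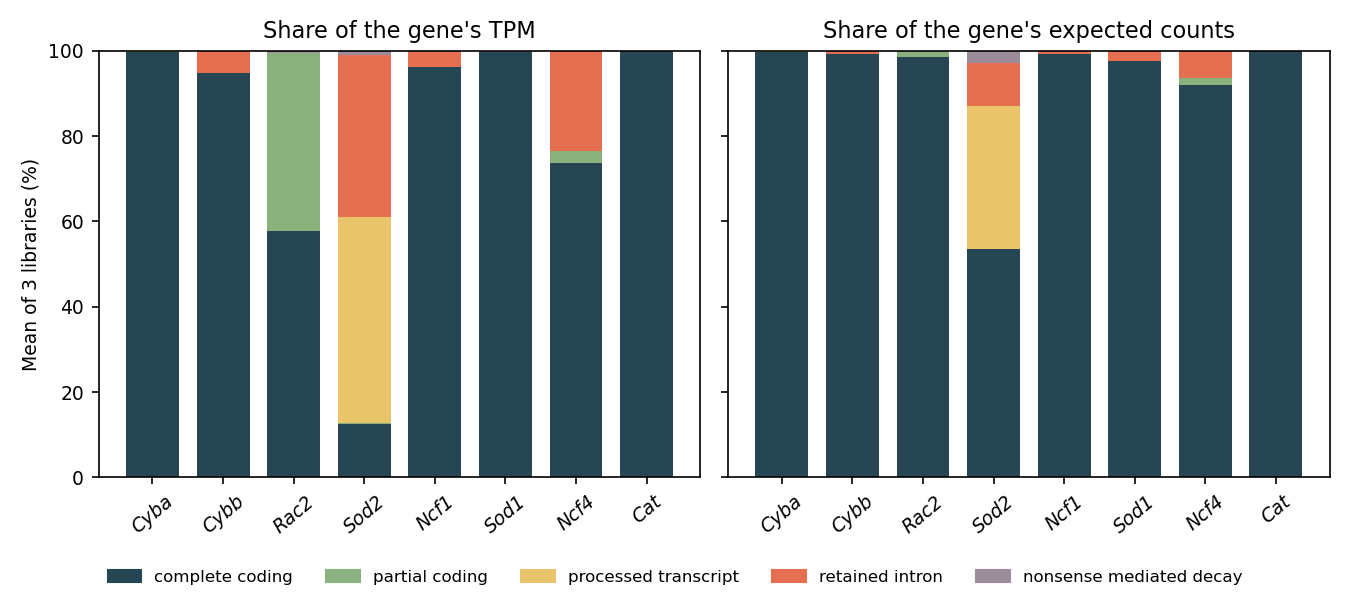
Share of each gene's TPM (left) and expected counts (right) held by each annotated class of transcript in the alignment-based table, as means of 3 libraries, in percent. Sod2 has 12.6% of its TPM and 53.6% of its counts in complete coding transcripts, Rac2 57.8% and 98.6%; for Cyba, Sod1 and Cat nearly all of both is complete coding.

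Counted over complete coding transcripts, Sod2 fell below Sod1, and below Cat by its mean. Sod2 then had 31.2, 18.5 and 19.6 TPM in replicates 1, 2 and 3, Sod1 60.2, 65.3 and 60.9 TPM, and Cat 29.4, 29.3 and 25.6 TPM. The log2 ratio of Sod2 to Sod1 was -0.93, -1.77 and -1.59, with a mean of -1.43 in the alignment-based table (limma adjusted p = 5.13e-28) and -1.46 in the read-based table. On the same count 90.9% of 8704 genes were called lower than Sod1. In that fit limma gave every gene the same spread, so its p-value does not reflect how much this pair varied. Sod2 was thus below Sod1 in 3 of 3 libraries on this count and above it in 3 of 3 over all transcripts. The log2 ratio of Sod2 to Cat was 0.083, -0.64 and -0.37, with a mean of -0.31 (limma adjusted p = 0.00750) in the alignment-based table, where 81.4% of genes were called lower than Cat. Replicate 1 did not share the sign of the mean there, and the SD of the ratios was 0.36, so the place of Sod2 beside Cat is not settled. In the read-based table the same ratio was -0.021, -0.79 and -0.49, with a mean of -0.43. This count was added after the data were seen.

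**Figure D2:**
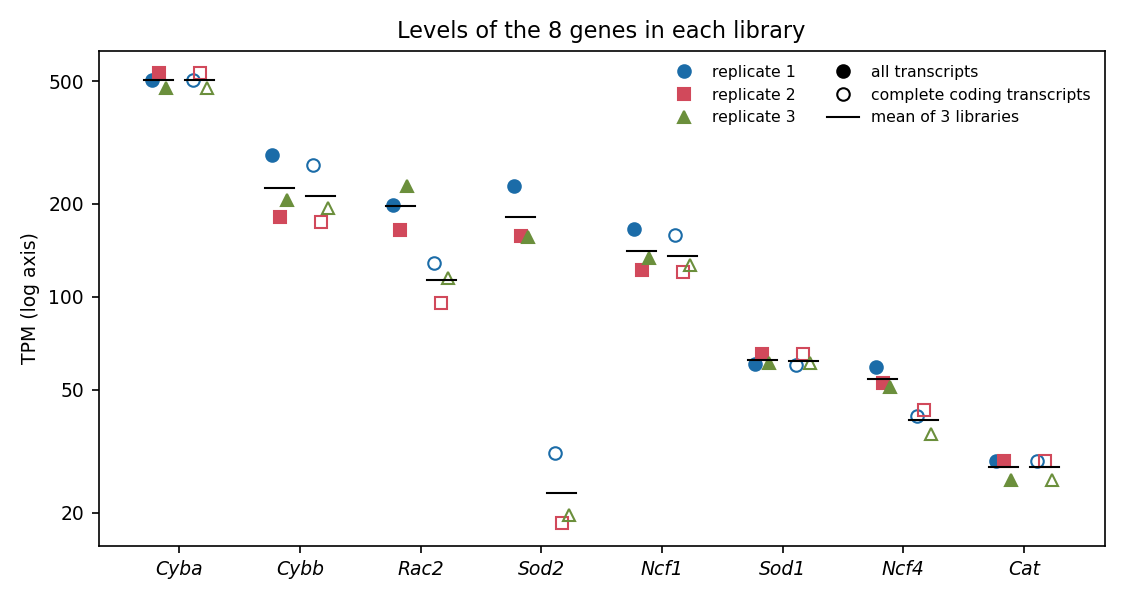
TPM of each gene in each library on a log axis; filled symbols count all transcripts, open symbols complete coding transcripts of the alignment-based table, and bars are means of 3 libraries. Open and filled symbols nearly coincide for Cyba, Cybb, Ncf1, Sod1 and Cat, while the mean of Sod2 is 181 TPM over all transcripts and 23.1 TPM over complete coding ones.

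By mean TPM over all transcripts the order was Cyba, Cybb, Rac2, Sod2, Ncf1, Sod1, Ncf4 and Cat. Some neighbours did not differ beyond their spread. The log2 ratio of Cybb to Rac2 was 0.53, 0.13 and -0.15, with a mean of 0.17 (SE 0.18, limma adjusted p = 0.350), where 98.2% of detected genes were called different from Rac2. The log2 ratio of Rac2 to Sod2 was -0.20, 0.063 and 0.54, with a mean of 0.14 (SE 0.16, limma adjusted p = 0.403), where 98.3% of detected genes were called different from Sod2. Sod1 was above Ncf4 in 3 of 3 libraries by a mean log2 ratio of 0.20 that did not pass the threshold (SE 0.082, limma adjusted p = 0.0544), where 97% of detected genes were called different from Ncf4. In the read-based table over all transcripts the ratio was -0.18, 0.26 and -0.031, with a mean of 0.016 (limma adjusted p = 0.883) and 1 of 3 libraries positive. In the gene table it passed without replicate 1 (0.28, limma adjusted p = 0.0291) and with no filter on low genes (limma adjusted p = 0.0478).

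The other neighbours were apart. Sod2 was above Ncf1 with log2 ratios of 0.46, 0.37 and 0.23 (limma adjusted p = 0.00935), where 2.9% of detected genes were called higher than Ncf1. Ncf1 was above Sod1 with log2 ratios of 1.44, 0.89 and 1.12 (limma adjusted p = 7.58e-13), and Ncf4 above Cat with 0.99, 0.82 and 0.97 (limma adjusted p = 1.44e-06). The order of neighbours was taken from these same libraries, so the signs of their means follow from the choice. Of all 11 pairs 8 passed an adjusted p of 0.05. Nearly all detected genes did so where both directions were counted: 97% against Ncf4, 98.2% against Rac2 and 98.3% against Sod2. The shares called higher that stand beside the other pairs count a single direction, so passing was not rare. In 5 of the 8 fits over all transcripts limma gave every gene the same spread. Those p-values do not reflect how much the pair itself varied, while the ratios in each library do.

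Over complete coding transcripts the order was Cyba, Cybb, Ncf1, Rac2, Sod1, Ncf4, Cat and Sod2, in both transcript tables. Cybb was then above Rac2 (mean log2 ratio 0.89, limma adjusted p = 3.53e-12), with 3.19% of genes called higher than Rac2. Rac2 was above Sod2 (2.28, limma adjusted p = 6.16e-33), with 15.3% called higher than Sod2, and Sod1 above Ncf4 (0.63, limma adjusted p = 3.68e-07), with 9.96% called higher than Ncf4. Sod2 was below Ncf1 (-2.53, limma adjusted p = 6.12e-114), with 96.3% called lower than Ncf1. All 4 held in 3 of 3 libraries. In the fits for these 4 pairs limma gave every gene the same spread, so the p-values do not reflect how much each pair varied. The moves of Sod2 and Rac2 made the differences between the 2 orders, since the other 6 genes kept their sequence.

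**Figure D3:**
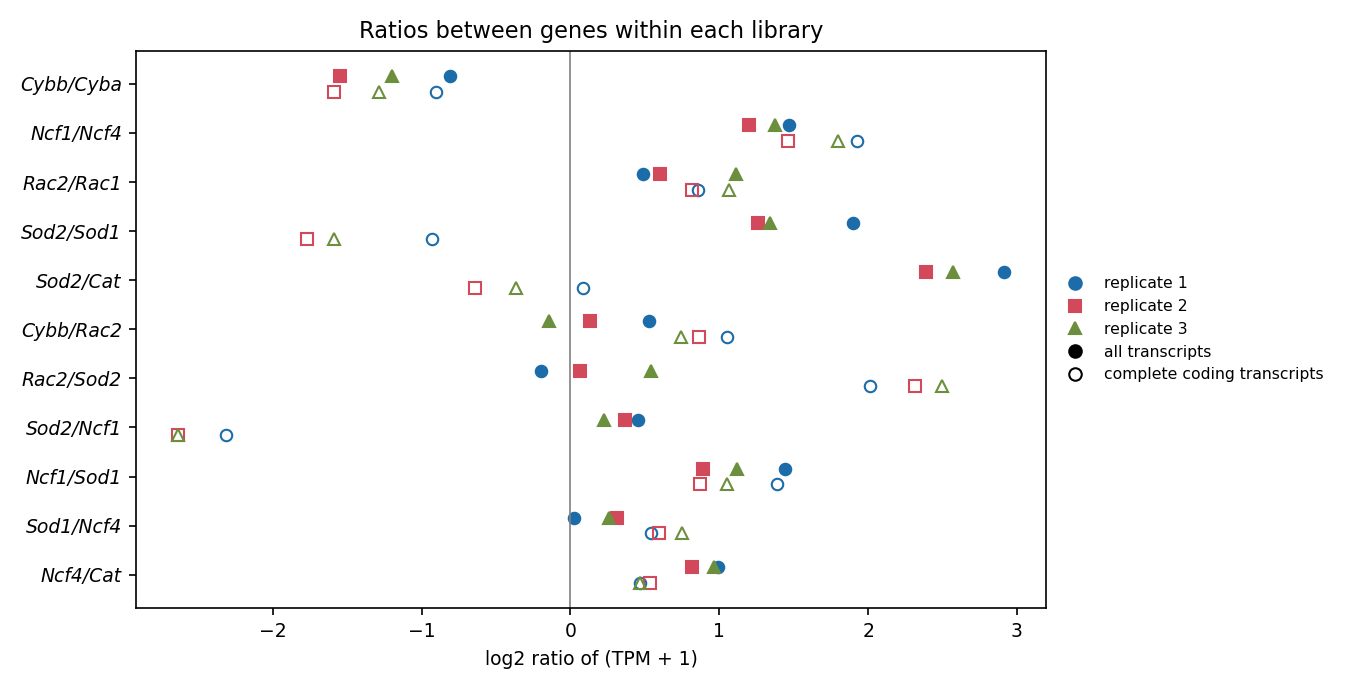
Log2 ratio of (TPM + 1) between the genes of each pair, formed within each library, over all transcripts (filled) and complete coding transcripts of the alignment-based table (open). Filled and open symbols lie on opposite sides of 0 for Sod2 against Sod1 and Sod2 against Ncf1, and the symbols of Cybb/Rac2 and Rac2/Sod2 straddle 0 over all transcripts.

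The libraries did not order the 8 genes alike. After TMM scaling of the counts, the log2 deviation of replicate 2 from the mean of the 3 was 0.19 for Cyba, 0.18 for Ncf4, 0.17 for Sod1 and 0.18 for Cat. For Cybb it was -0.15, for Ncf1 -0.059, for Rac2 -0.12 and for Sod2 -0.12. The 2 cytochrome chains thus had deviations of opposite sign in replicate 2, and so had the 2 dismutases. Sod2 had its high library in replicate 1, at 0.26. The part that the low nuclear RNA of replicate 2 has in these deviations was not tested. In an intercept-only edgeR model the biological coefficients of variation of the 8 genes ran from 0.113 for Cat and Ncf4 to 0.145 for Sod2, against a median of 0.144 over 12752 genes. That model draws the value of each gene toward those of other genes. The SD of the log2 TMM-scaled values themselves was smallest for Ncf1 (0.077) and Rac2 (0.11). It was 0.15 for Cat, 0.16 for Ncf4 and largest for Sod2 (0.23).

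Retained-intron transcripts split the genes in another way. Their share was lowest in replicate 2 for Cybb (6.72%, 2.95% and 5.84% of TPM in replicates 1, 2 and 3), Ncf1 (4.12%, 1.67% and 4.78%), Ncf4 and Sod1 (0.348%, 0.107% and 0.344%). These are 4 of the 5 members that have such transcripts, and 76.3% of detected protein-coding genes with such a transcript were also lowest in replicate 2, so the 4 follow the libraries as a whole. Sod2 did not: its share was 34.2%, 38.6% and 41.2%, lowest in replicate 1. By expected counts the class held on average 0.674% for Cybb, 0.713% for Ncf1, 6.36% for Ncf4, 2.30% for Sod1 and 10.1% for Sod2. Within Ncf4, Ncf4-206 was lowest in replicate 3 (17.5%, 10.5% and 7.96%), though in replicate 2 in the read-based table (10.1%, 6.11% and 8.23%). The Sod2 transcripts of this class were not alike either. Sod2-206 followed the common pattern (3.50%, 1.65% and 4.22%), while Sod2-204 was lowest in replicate 1 (17.5%, 30.0% and 31.1%) and Sod2-203 was highest there (13.0%, 6.91% and 5.75%). The read-based table gave the same member count, with 80.7% of genes lowest in replicate 2. There Sod2-203 held 14.7%, 7.76% and 11.6%, so it too was lowest in replicate 2. Sod2-204 was again lowest in replicate 1 (20.0%, 31.7% and 29.3%). In the read-based table Cybb-203, a retained-intron transcript of Cybb, held 6.91% ± 1.97 of TPM and Cybb-201 88.9% ± 3.40, against 2.08% ± 0.731 and 94.8% ± 1.98 in the alignment-based table.

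**Figure D4:**
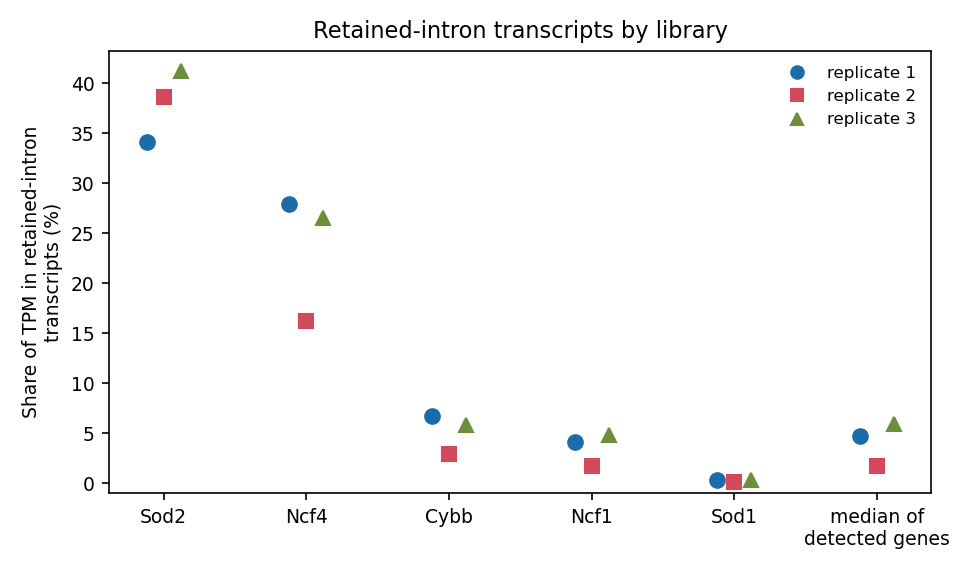
Share of TPM in transcripts annotated as retained intron, in percent, for the 5 members that have them and as the median over 5578 detected protein-coding genes, by library (alignment-based table). The median is 4.69%, 1.71% and 5.94% in replicates 1, 2 and 3; Ncf4, Cybb, Ncf1 and Sod1 are lowest in replicate 2 and Sod2 in replicate 1.

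Of 15 partners and relatives of the oxidase, 6 were detected. The share of all protein-coding genes detected was 41.4%, to be set beside this count and those of the lists that follow. Arhgdib, which encodes an inhibitor that holds Rac proteins in the cytosol, had 237 ± 23.1 TPM (SD, n = 3). It was followed by Rac1 at 119 ± 20.1 TPM, the kinase gene Prkcd at 79.0 ± 16.5 TPM and the Rac activator gene Vav1 at 74.7 ± 7.87 TPM. The proton channel gene Hvcn1 and Cybc1, needed for the cytochrome to form, made up the rest. The other 9 were under 1 TPM in every library: the heavy chain relatives Nox1, Nox3, Nox4, Duox1 and Duox2, the Duox partners Duoxa1 and Duoxa2, and Noxo1 and Noxa1, whose proteins work beside Nox1. Cybb was thus the only one of the 6 heavy chain genes listed that was detected.

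Of 19 genes of peroxide and thiol defence, 17 were detected, and 9 of the 19 had a larger mean TPM than Cat. Among all 22015 nuclear protein-coding genes Cat ranked 1674. Prdx1 (290 ± 39.6 TPM) and Prdx5 (251 ± 80.9 TPM) encode peroxiredoxins, Gpx1 (269 ± 5.98 TPM) a glutathione peroxidase and Glrx (142 ± 32.8 TPM) a glutaredoxin. Prdx5 had 330, 168 and 254 TPM in replicates 1, 2 and 3, each above every library of Cat. Sod3, the secreted dismutase, and Gpx7 were under 1 TPM in every library. Of 8 genes around the regulator Nrf2, which switches on genes of antioxidant defence, 6 were detected. Hmox1, for heme breakdown, had 98.3 ± 18.9 TPM, Nfe2l2, which encodes Nrf2, 85.7 ± 19.0 TPM, its competitor Bach1 22.4 ± 4.77 TPM and its inhibitor Keap1 21.8 ± 1.93 TPM. Nqo1, a well-known Nrf2 target, was under 1 TPM in every library, and Slc7a11 reached 1 TPM in replicate 1 alone.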

How the data were processed

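Cytosolic RNA depleted of ribosomal RNA was sequenced in 3 libraries of 1 group. The deposited gene table holds expected counts, TPM and FPKM per gene; per the file headers it has the RSEM layout. One deposited transcript table (alignment-based) holds expected counts and TPM in the same layout, and another (read-based) estimated counts and TPM in the layout of kallisto. The accompanying texts name mm10 and annotation M21; names and versions of aligner and quantifiers are not stated in the sources used here. TPM divides counts by effective length, so a few reads on a short transcript weigh heavily.

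The members and lists were chosen with earlier results of these data known. Detected means that every library reached a TPM of 1. Ratios of log2(TPM + 1) within each library, a scale that understates ratios of low genes, were tested two-sided against 0 with limma 3.58.1 in R 4.3.3. There was 1 fit per denominator over all 9647 other detected genes, with Benjamini-Hochberg adjustment over all of them. Spread came from edgeR 4.0.16 (TMM, filterByExpr) on expected counts rounded to whole numbers, whose TMM-scaled values also gave the deviations of each library. Rows naming no gene (0.356%, 0.125% and 0.104% of counts) were left out. At these depths 3 counts, the limit that a count of 0 allows, come to 0.0785, 0.0648 and 0.0775 CPM, a limit that covers only counting error. Between libraries, the chi-square of counts (genes of 10 or more) was 44.7 to 113 per degree of freedom, so no pair matched within sampling noise. The ratio estimates and the edgeR spread were checked on simulated counts. That check did not cover the p-values, the transcript shares or the sequences.

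A complete coding transcript is one annotated as protein coding with no mark of a missing start or end. Percentages of TPM or counts were computed from the deposited transcript tables. Some items of the lists and pairs are not reported here. Named were the 8 members and the genes of the pairs; in each pathway list the 4 highest and those under 1 TPM in every library; the 3 genes nearest to Cybb and to Sod2; transcripts with a share of 5% or more in either table; and the 2 highest markers of each cell type. Hvcn1, Cybc1, Slc7a11, Ly6g, Malat1, Neat1, Rn7s1, Rn7s2, the processed transcripts of Rac1 and the overlapping genes were named after their values were seen.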

Additional observations from a re-analysis of the deposited data

How the results depend on the processing

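The count of members detected and the counts detected in the 3 pathway lists stayed within 1.5 times under every alternative threshold, scale and table tried. The Nrf2 list moved most, from 6 of 8 to 8 at a TPM of 0.1 and to 4 at a TPM of 10. The log2 pair ratios kept direction and side of the threshold with FPKM, with TPM rescaled to the nuclear protein-coding total, with a pseudocount of 0.1, with a limma trend and with both transcript tables summed; Sod1/Ncf4 came to 0.016 in the read-based one. With no filter Sod1/Ncf4 passed at 0.20.

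Counting complete coding transcripts, added after the data were seen, moved 6 of 11 ratios across 0 or the threshold in each table. In the alignment-based and the read-based table Sod2/Sod1 came to -1.43 and -1.46, Sod2/Ncf1 to -2.53 and -2.54, and Sod2/Cat to -0.31 and -0.43, all against positive ratios over all transcripts. In the same tables Cybb/Rac2 came to 0.89 and 1.04, Rac2/Sod2 to 2.28 and 2.29, and Sod1/Ncf4 to 0.63 and 0.52, and these then passed. The deposited shares show where Sod2 and Rac2 lose TPM; whether the shares are right was not tested.

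Leaving out each library gave -0.0071 to 0.33 for Cybb/Rac2 (-0.0071 without replicate 1; 0.33, limma adjusted p = 0.0260, without replicate 3), -0.067 to 0.30 for Rac2/Sod2 (-0.067 without replicate 3) and 0.14 to 0.28 for Sod1/Ncf4. The other 8 ratios kept their calls. The common edgeR coefficient of variation was 0.189, and 0.236, 0.135 and 0.216 without replicates 1, 2 and 3.

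The read-based table put the mean TPM of all 8 genes lower, from 11.2 for Cat to 225 for Cyba. With 3 libraries and no other group, no comparison between conditions could be made, and transcript shares resting on under 100 counts are the least precise. No paired analysis was possible because all 3 libraries belong to 1 group.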
